A study of Mus musculus with 8 samples.

Results

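The transforming growth factor beta (TGF-beta) system was followed through 10 genes in bulk RNA sequencing of mouse hearts. They are the 3 ligand genes Tgfb1, Tgfb2 and Tgfb3, the receptor genes Tgfbr1, Tgfbr2 and Acvrl1, the co-receptor genes Tgfbr3 and Eng, and the signal transducers Smad3 and Smad7. They were listed by name, by a rule that sets no condition on their values but with earlier results of these data known, from a table of 49315 genes, and all 10 passed the filter on low counts that left 16180 genes for testing. The samples were 4 libraries from male and 4 from female C57BL/6 hearts at 8 weeks of age, with no treatment or engineered allele named. C57BL/6 is an inbred laboratory strain, so both sexes share nearly the same autosomes. The study compared the sexes. The labels state neither which part of the heart was taken nor that each library came from its own animal, so p-values measure the spread between these samples, which may be technical.

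TGF-beta ligands are secreted as latent complexes bound to matrix proteins and act after release. The active ligand joins the type II receptor TGFBR2 with a type I receptor, usually TGFBR1 (ALK5), which phosphorylates SMAD2 and SMAD3. In endothelial cells the alternative type I receptor ACVRL1 (ALK1), with the co-receptor endoglin, signals to SMAD1, SMAD5 and SMAD9, and there its main ligands are BMP9 and BMP10. SMAD7 is an inhibitory Smad, itself induced by the pathway, that blocks the type I receptors. In the heart the system is known for its control of fibroblast activation and matrix deposition, and for its part in the development of valves and vessels.

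Total counts were 39612848 to 47097765 in male libraries and 32746054 to 35467832 in female ones, so depth and sex moved together. The mitochondrial share of counts was also apart, 12.1% to 12.5% in males and 9.96% to 11.4% in females, and the part of either in the differences below was not tested. Ventricular cardiomyocyte markers summed to 86040 to 95800 CPM in males and 92340 to 93440 in females. Some libraries stood apart. Male replicate 4 had 1169 CPM of summed atrial markers, against 3239 to 3681 in the other 3 males and 3432 to 3764 in females. Male replicate 1 had 569 CPM of summed macrophage markers, against 382 to 389 in the other males and 313 to 366 in females. Its level of Adgre1, the F4/80 macrophage antigen gene, was 62.8 CPM, where the other 7 libraries lay between 10.9 and 13.9 CPM. Expression is given as CPM, counts relative to the TMM-scaled size of each library, and averages carry the SD of the 4 libraries per sex. Fold changes are log2, male minus female, with a standard error (SE).

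Of the 10 genes, Smad3 was the single one that differed between the sexes, and it was lower in males. By the quasi-likelihood test of edgeR, with Benjamini-Hochberg adjustment over all genes and a threshold of 0.05, 0 of the 10 were higher in males and 1 was lower. Over all genes tested, 3.79% were called, 2.03% higher and 1.76% lower in males, and at that rate fewer than 1 call in 10 genes would be met. DESeq2 called 2 of the 10, Smad3 and Tgfb2, and 6.13% of the genes to which it gave an adjusted p. At an unadjusted p below 0.05 stood 4 of the 10, Smad3, Tgfb2, Smad7 and Tgfbr3, where 19.5% of all genes did so. The sexes did not overlap in 1 of the 10, against 12.0% of all genes. The median log2 fold change was -0.017 over the 10 genes and -0.00074 over all genes tested. A p above the threshold does not show that the levels were equal.

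**Figure D1:**
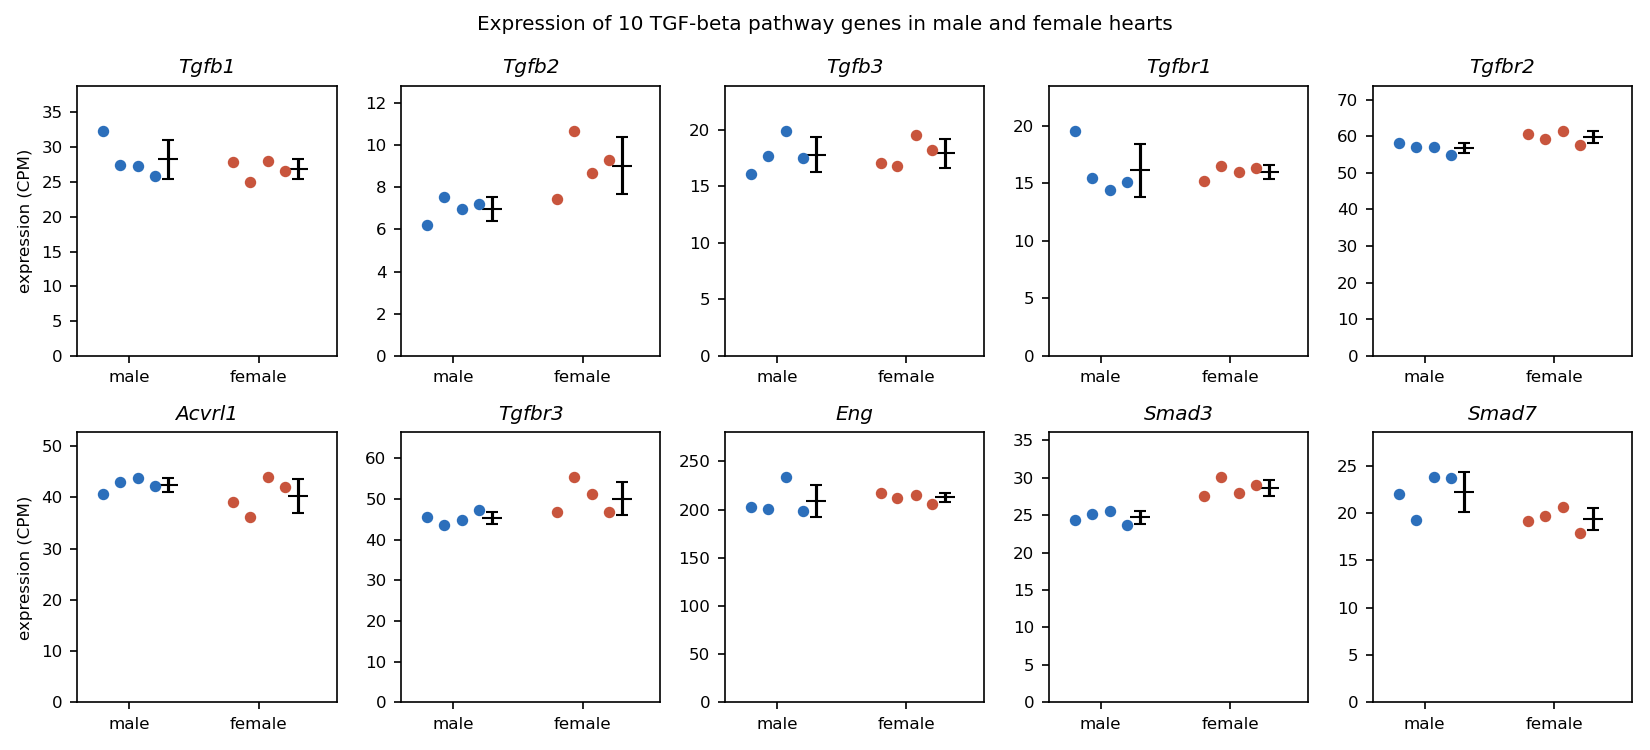
Expression in CPM (vertical axes from 0) of the 10 genes in 4 male and 4 female heart libraries, 1 point per library, with mean and SD to the right of each group. The male points of Smad3 all lie below the female ones, while male replicate 1 (leftmost male point) is the highest of all 8 libraries for Tgfb1 and Tgfbr1.

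Per exon length, the co-receptor endoglin was by far the most abundant of the 10 transcripts and Tgfb2 the least. Levels here are CPM per kilobase of summed exon length, averaged over the 8 libraries. Eng stood at 52.1 ± 2.81, above 95.0% of the genes tested, and Acvrl1 followed at 9.7 ± 0.615. Tgfbr3 (7.28 ± 0.582) and Tgfbr2 (7.12 ± 0.258) were next, and their ranges overlapped. The ranges of Tgfb1 (5.46 ± 0.432), Tgfb3 (5.27 ± 0.387), Smad3 (4.81 ± 0.412) and Smad7 (4.6 ± 0.483) also overlapped, each with its neighbour. Tgfbr1 (2.46 ± 0.24) and Tgfb2 (1.38 ± 0.251) came last, and neither range touched that of the gene above it.

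**Figure D2:**
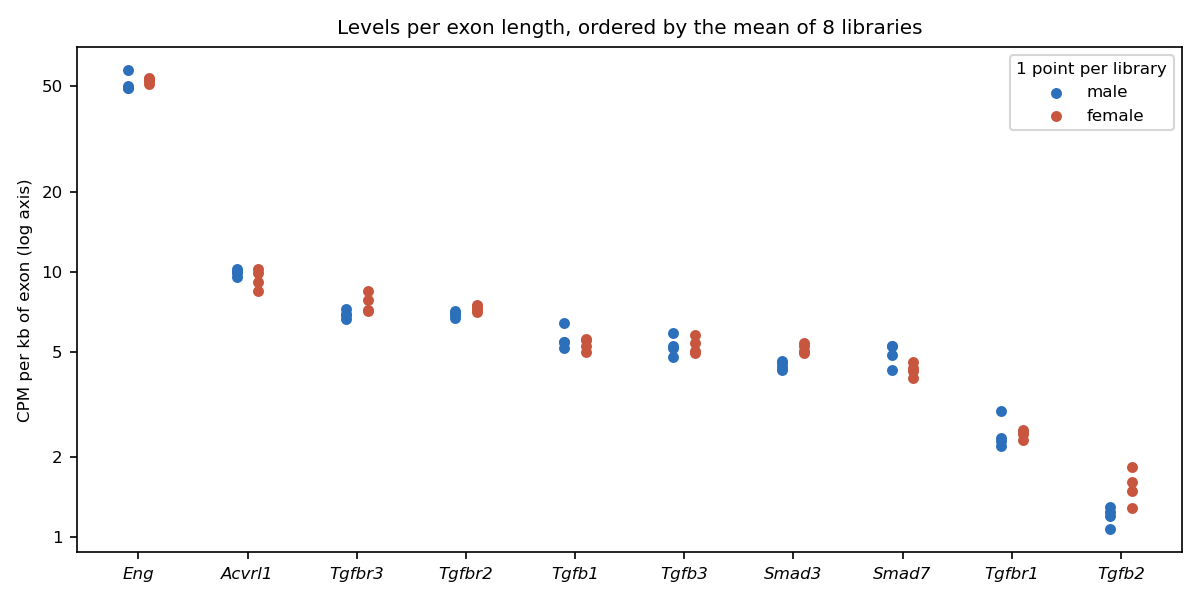
Level per exon length (CPM per kb, log axis) of the 10 genes, ordered by their mean over 8 libraries, with 1 point per library, males to the left of females. Eng lies between 49.2 and 57.6 and Tgfb2 between 1.07 and 1.84.

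Among the ligands, Tgfb1 and Tgfb3 were present at similar levels per length and Tgfb2 was a minor share. Their summed level was 12.1 ± 0.402 CPM per kb in males and 12.2 ± 0.486 in females. Of that sum, Tgfb1 made up 46.4% ± 4.06 in males and 43.8% ± 1.94 in females, and Tgfb3 made up 43.6% ± 3.42 in males and 43.4% ± 1.31 in females. Tgfb2 made up 9.996% ± 1.02 in males and 12.8% ± 2.12 in females, with overlap.

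Tgfb2 encodes the ligand best known for its role in valve and outflow tract development, and it showed the largest fold change of the 10 without passing the threshold. Its expression was 6.19, 7.53, 6.96 and 7.2 CPM in the male libraries. The female libraries had 7.43, 10.7, 8.66 and 9.31 CPM. Of the males, 3 lay below every female library and male replicate 2 just above the lowest, female replicate 1. The log2 fold change was -0.37 (SE 0.11, edgeR adjusted p = 0.083). Tgfb2 passed in 4 of 17 alternative fits. It passed with DESeq2 (adjusted p = 0.027), without the filter (0.038) and with the replicate number as a block (0.046). The other was without female replicate 1 (log2 fold change -0.45, adjusted p = 0.041). Its adjusted p reached 0.2 without female replicate 2, the library with its highest level. Tgfb2 was also the least deeply counted of the 10, with 246 to 389 counts per library. A further gene on the opposite strand, Gm29491, overlaps 2.14% of its exon length and had 12 counts over all 8 libraries.

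Tgfb1, the most widely expressed ligand gene and one that leukocytes and platelets also supply, had 32.3, 27.4, 27.3 and 25.9 CPM in males. Females had 27.8, 25.0, 28.0 and 26.5 CPM. Male replicate 1 alone lay above the female range, at 20.2% more than the mean of the other 3 males. The log2 fold change was 0.073 (SE 0.068, edgeR adjusted p = 0.61), and without male replicate 1 it was 0.0021. Platelet markers summed to 62.6 CPM in that library, against 29.5 to 52.3 in the other males and 27.6 to 56.0 in females. Female replicate 4, with the 56.0 CPM, had 26.5 CPM of Tgfb1. Lymphocyte markers in male replicate 1 summed to 31.3 CPM and granulocyte markers to 7.21 CPM, the highest of the males. Both lay within the female ranges of 15.5 to 32.4 and 4.49 to 13.4 CPM. The part of platelets and leukocytes in these Tgfb1 levels was not tested.

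Tgfb3, the third ligand gene, had 16.1, 17.7, 19.9 and 17.5 CPM in males, and 17.1, 16.8, 19.5 and 18.2 CPM in females. The sexes overlapped throughout (log2 fold change -0.008, SE 0.072, edgeR adjusted p = 0.97).

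Of the signalling receptors, none was called. Tgfbr1, which encodes the kinase that phosphorylates SMAD2 and SMAD3, had 19.5, 15.4, 14.4 and 15.1 CPM in males. Females had 15.2, 16.5, 16.0 and 16.3 CPM. Male replicate 1 was again the highest, 30.4% above the mean of the other males, of which replicates 3 and 4 lay below every female library and replicate 2 just above the lowest. The log2 fold change was 0.009 (SE 0.087, edgeR adjusted p = 0.97) with it and -0.096 (adjusted p = 0.43) without it. This is the library with the high macrophage marker sum, and the part of those cells in its Tgfb1 and Tgfbr1 levels was not tested.

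Tgfbr2, which encodes the constitutively active type II kinase that binds the ligand, varied little among libraries, with a coefficient of variation of 2.35% in males, the lowest of the 10 genes there, and 2.79% in females, where Eng was lower. Its expression was 58.2, 57, 56.9 and 55.0 CPM in males and 60.7, 59.2, 61.4 and 57.7 CPM in females. All but 1 of the male values lay below the lowest female one, yet males were 4.98% lower on average, which did not pass (log2 fold change -0.074, SE 0.035, edgeR adjusted p = 0.28).

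Acvrl1, the endothelial type I receptor gene, had 40.6, 42.9, 43.8 and 42.3 CPM in males. Females had 39.0, 36.2, 43.9 and 42.1 CPM. The male range lay within the female one (log2 fold change 0.074, SE 0.056, edgeR adjusted p = 0.51). Per length, Acvrl1 exceeded Tgfbr1 by 4.1 ± 0.631 times in males and 3.86 ± 0.356 times in females.

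The co-receptors present ligand to the signalling receptors without a kinase of their own. Tgfbr3, or betaglycan, which is needed for high affinity binding of the TGFB2 protein, had 45.5, 43.5, 44.9 and 47.3 CPM in males. Females had 46.7, 55.3, 51.2 and 46.9 CPM. Of the males, 3 lay below all females and male replicate 4 above 2 of them (log2 fold change -0.14, SE 0.055, edgeR adjusted p = 0.18). Both Tgfb2 and Tgfbr3 were highest in female replicate 2, 26.1% and 14.5% above the mean of the other females.

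Eng, the endothelial co-receptor gene, had 203, 200, 233 and 199 CPM in males and 217, 213, 215 and 206 CPM in females. Male replicate 3 stood above all others, and the other 3 males lay below the female range. The log2 fold change was -0.026 (SE 0.051, edgeR adjusted p = 0.83) and, without that library, -0.084 (adjusted p = 0.31). Male replicate 3 also had the highest endothelial marker sum of the males, 1705 CPM, where the males ran from 1539 CPM and the females from 1541 to 1722 CPM. The difference of these sums between the sexes did not pass (exact two-sided permutation test, p = 0.6, 4 libraries each). In exons Eng overlaps Fpgs of the opposite strand over 1.51% of its length, and the strand setting of the counting is not stated.

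Smad3, the receptor-activated Smad that carries much of the TGF-beta response of fibroblasts (chromosome 9, 63646767 to 63757994 on GRCm38), was lower in males. Its expression was 24.3, 25.2, 25.6 and 23.7 CPM in the male libraries, and 27.5, 30.0, 27.9 and 29.0 CPM in the female ones. Each male library lay below each female one, at 24.7 ± 0.841 CPM in males and 28.6 ± 1.13 CPM in females. The log2 fold change was -0.21 (SE 0.045, edgeR adjusted p = 0.026), which is 13.7% lower in males. The direction held in all 17 alternative fits and the call in 11. Among the refits without 1 library it was lost without male replicate 1 (adjusted p = 0.057), male replicate 4 (0.065), female replicate 2 (0.064) or female replicate 4 (0.06), while with all libraries thinned to the smallest total it stood at 0.038.

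The sums of 4 marker lists did not overlap between the sexes either. Fibroblast markers summed to 2869 to 3269 CPM in males and 3361 to 3562 CPM in females. All 13 had a negative log2 fold change, with 2 of them called lower, where 1.76% of all genes were. That sum was mostly Gsn, at 1936 CPM in males and 2072 in females, which was not called (edgeR adjusted p = 0.31). The exact two-sided permutation test gave p = 0.029 for that sum, the smallest that 4 against 4 libraries allow, and 0.12 after adjustment over 17 marker lists. The same p and adjusted p held for the sums of macrophage markers (mean 431 CPM in males, 345 in females), of pericyte and smooth muscle markers (3688 CPM in males, 3473 in females) and of white adipocyte markers (618 CPM in males, 772 in females), each compared in the same way. Of 12 white adipocyte markers, 8 were called lower in males and 0 higher, against 1.76% and 2.03% of all genes. All 12 had a negative log2 fold change, and the median was -2.22. The sum of that list was mostly Fabp4, a gene that endothelium also expresses, at 494 CPM in males and 527 in females. Of the macrophage markers, 2 of 12 were called higher in males, and of the pericyte and smooth muscle markers 1 of 11 was called higher and 1 lower. The shares over all genes were again 2.03% higher and 1.76% lower. The pericyte and smooth muscle sum was mostly Des, at 2495 CPM in males and 2272 in females. Of the 11 genes in that list, 8 had a negative and 3 a positive log2 fold change. By mean log2 CPM in place of sums, the pericyte and smooth muscle difference turned to -0.13, male minus female. The part of any cell type in the Smad3 difference was not tested. In bulk tissue, fewer cells of a type and less RNA per cell cannot be told apart. By the root mean square difference of centred log2 CPM over the 8 libraries, the 3 genes most like Smad3 among 12167 were Armcx3 (0.032), Cnot9 (0.037) and Stx6 (0.038), where the median gene lay at 0.15. None of these 3 was called itself, with edgeR adjusted p of 0.091, 0.13 and 0.073, and male and female means of 10.9 and 12.6 CPM for Armcx3.

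Smad7, the inhibitory Smad (chromosome 18), ran the other way without passing the threshold. Its expression was 22.04, 19.3, 23.8 and 23.8 CPM in males and 19.2, 19.7, 20.7 and 17.9 CPM in females. Of the males, 3 lay above every female and male replicate 2 within the female range (log2 fold change 0.2, SE 0.071, edgeR adjusted p = 0.15). Without male replicate 2 the log2 fold change was 0.26 (adjusted p = 0.049). Per length, the level of Smad7 over that of Smad3 was 1.11, 0.941, 1.14 and 1.23 in the male libraries and 0.855, 0.805, 0.91 and 0.758 in the female ones. The ratios of the sexes did not overlap, which is given as a description since it joins values of genes already described.

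**Figure D3:**
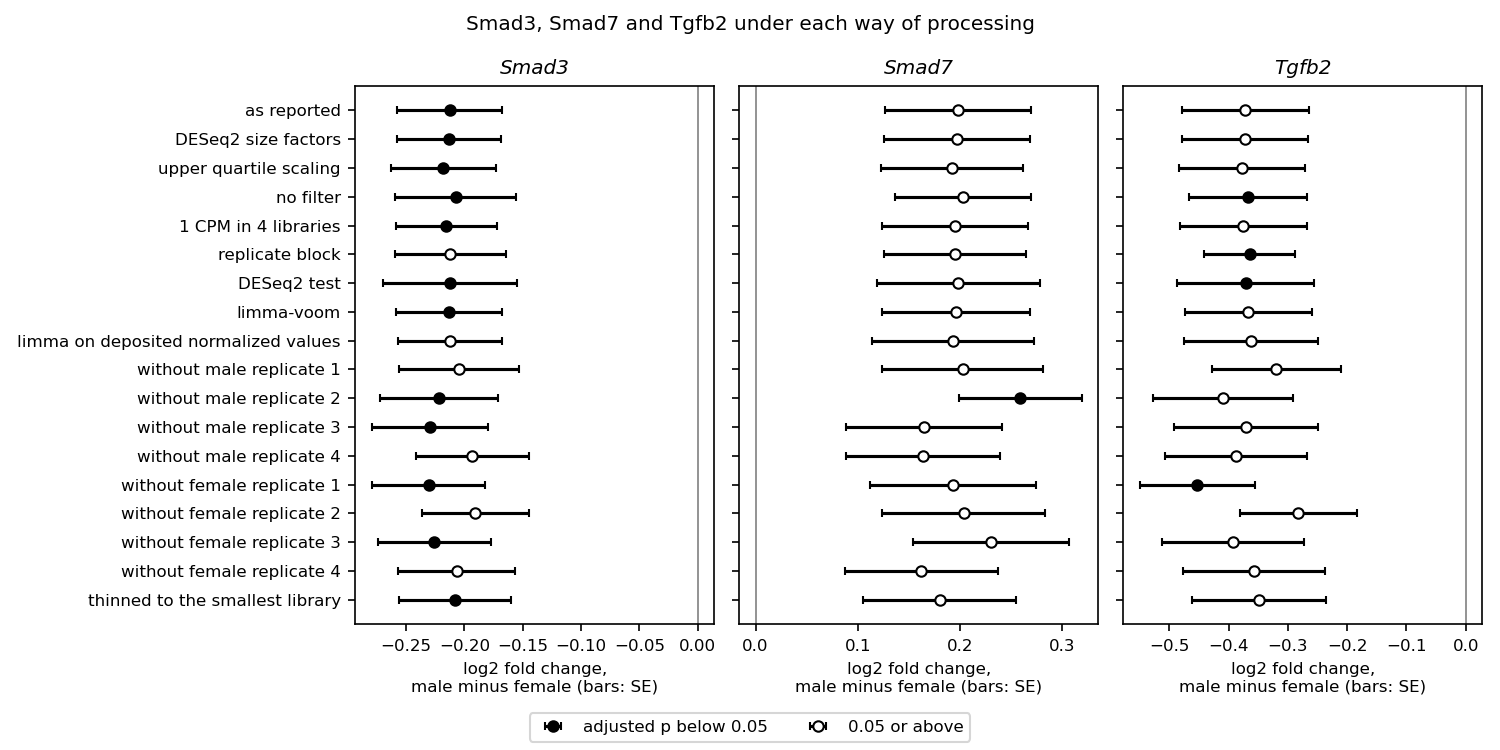
Log2 fold change, male minus female, with SE, of Smad3, Smad7 and Tgfb2 as reported and in 17 alternative fits, filled where the adjusted p was below 0.05. Smad3 stays between -0.23 and -0.19, Smad7 between 0.16 and 0.26 and Tgfb2 between -0.45 and -0.28.

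The promoters of Smad3 and Tgfb2, the called gene and the gene with the largest fold change, are shown because they differ in the core elements they hold. Each is 300 bases of RefSeq sequence on GRCm38.p6, from 250 bases before the annotated start to 50 after it, and capitals mark the motifs searched on both strands. The motifs were CAGAC or GTCTG (the CAGA box that SMAD3 can bind, in 49.6% of 32851 such windows), GGGCGG or CCGCCC (the GC box, in 35.7%) and TATAAA or TTTATA (the TATA box, in 13.6%), and none of the matches shown overlap.
Smad3, chr9:63757945-63758244, minus strand: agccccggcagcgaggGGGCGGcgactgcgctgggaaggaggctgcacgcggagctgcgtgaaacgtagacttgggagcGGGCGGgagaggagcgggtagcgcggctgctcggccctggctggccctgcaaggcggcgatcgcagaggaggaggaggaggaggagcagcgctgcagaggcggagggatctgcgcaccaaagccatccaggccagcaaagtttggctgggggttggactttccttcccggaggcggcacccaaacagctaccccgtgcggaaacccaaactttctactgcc
Tgfb2, chr1:186705940-186706239, minus strand: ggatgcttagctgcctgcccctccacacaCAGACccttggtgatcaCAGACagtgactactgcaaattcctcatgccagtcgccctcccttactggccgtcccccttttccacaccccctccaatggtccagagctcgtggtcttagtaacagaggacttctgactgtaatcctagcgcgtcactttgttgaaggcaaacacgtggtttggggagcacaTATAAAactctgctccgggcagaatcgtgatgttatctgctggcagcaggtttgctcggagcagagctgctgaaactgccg
The Smad3 window held 2 GC boxes, no TATA box and no CAGA box, at 67.7% GC. The Tgfb2 window held a TATA box that begins 31 bases before the start and 2 CAGA boxes, at 54.3% GC, where the median window had 52.7%. A window was found for 6 of the 10 genes, and that of Tgfb1 held 6 GC boxes. The Eng window also held 2 CAGA boxes, that of Tgfbr2 held 1, and a window of Tgfbr1 held 1. Such matches are letters in a window and do not show binding.

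Beyond the 10 genes, 8 lists of other pathway genes held 108 different genes, of which 104 were tested. Of these, 4 were higher and 3 lower in males, the rest not called, and the median log2 fold change was -0.034. Over all genes tested, the shares were 2.03% higher and 1.76% lower. The 3 genes lower in males were in the list of TGF-beta and SMAD3 targets, and the 4 higher in males were among the antagonists of the family's ligands and the targets of ALK1 and BMP signalling.

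Of 26 listed TGF-beta and SMAD3 targets tested, 3 were lower in males, where 1.76% of all genes were, 0 were higher and 23 were not called, with a median of -0.099. At an unadjusted p below 0.05 stood 8 of the 26, against 19.5% of all genes. Col3a1, which encodes fibrillar collagen III, was at 307 ± 18.2 CPM in males and 390 ± 17.9 CPM in females (log2 fold change -0.35, SE 0.05, edgeR adjusted p = 0.004), and all 8 refits without 1 library kept the call. Fn1, the fibronectin gene, was at 68.2 ± 3.04 CPM in males and 94.6 ± 16.8 CPM in females (-0.47, SE 0.099, edgeR adjusted p = 0.024). Its call held in 5 of those 8 refits and was lost without male replicate 3 (0.056), male replicate 4 (0.056) and female replicate 3 (0.064). Acta2, the smooth muscle actin gene that myofibroblasts also express, was at 121 ± 17.7 CPM in males and 158 ± 6.34 CPM in females (-0.39, SE 0.086, edgeR adjusted p = 0.032), kept in 2 of the 8 refits and at 0.083 without female replicate 3. Other classical targets were not called: Ccn2 had a log2 fold change of 0.047, Tgfbi of -0.013 and Postn, the periostin gene, of -0.18 (edgeR adjusted p from 0.16 to 0.93). The fibroblast marker sum, given above, was lower in males too, but that list shares Col1a1 and Col1a2 with the targets, so it is not independent of them. The list of pericyte and smooth muscle markers holds Acta2. Its sum, mostly Des, ran the other way, while the median log2 fold change of its genes was -0.16.

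**Figure D4:**
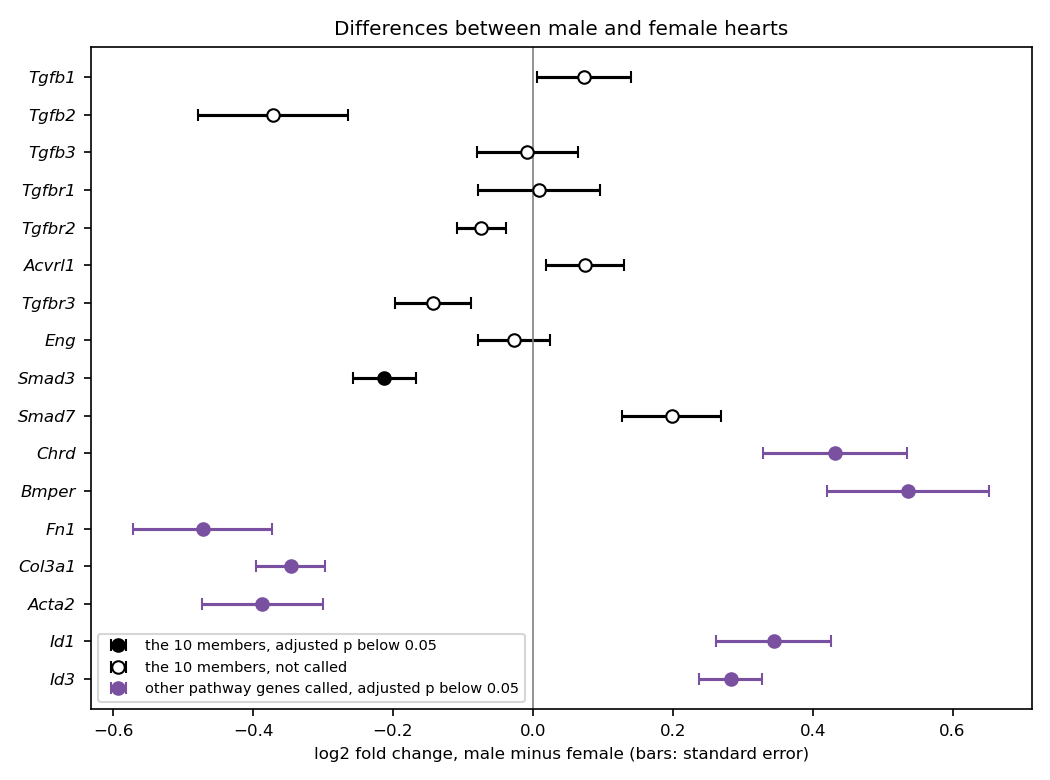
Log2 fold change, male minus female, with its SE, for the 10 genes (black) and the 7 other pathway genes called (purple), filled where the adjusted p was below 0.05. Smad3, Fn1, Col3a1 and Acta2 lie left of 0 (lower in males), and Chrd, Bmper, Id1 and Id3 lie right of it.

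Of 11 targets of ALK1 and BMP signalling, 2 were higher in males, where 2.03% of all genes were, 0 were lower and 9 were not called, with a median of -0.1, opposite in sign to the 2 calls. At an unadjusted p below 0.05 stood 8 of the 11, against 19.5% of all genes. Id3, an inhibitor of helix-loop-helix transcription factors, had 64.7, 63.3, 69.99 and 61.9 CPM in males and 56.1, 52.1, 53.3 and 52.1 CPM in females. The sexes did not overlap (log2 fold change 0.28, SE 0.045, edgeR adjusted p = 0.0074), and all 8 refits without 1 library kept the call. Its relative Id1 was at 50.2 ± 4.27 CPM in males and 39.6 ± 4.62 CPM in females (0.34, SE 0.082, edgeR adjusted p = 0.042), kept in 4 of the 8 refits and at 0.11 without male replicate 3. Of the other 6 at an unadjusted p below 0.05, none was called and the signs were mixed. The transcription factor genes Atoh8 and Hey1 had log2 fold changes of 0.29 and 0.32 (edgeR adjusted p = 0.056 and 0.085). The inhibitory Smad gene Smad6 had -0.28, Tmem100 -0.19, Smad9 -0.39 and Id2 -0.29 (edgeR adjusted p = 0.092, 0.13, 0.15 and 0.21).

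Of 8 tested antagonists of the family's ligands, 2 were higher in males, against the same 2.03% of all genes, 0 were lower and 6 were not called, with a median of -0.14, again opposite in sign to the calls. At an unadjusted p below 0.05 stood 5 of the 8, against 19.5% of all genes. Chrd encodes chordin, which binds BMP ligands outside the cell, and had 5.41 ± 0.559 CPM in males and 4.01 ± 0.35 CPM in females (log2 fold change 0.43, SE 0.1, edgeR adjusted p = 0.043). Bmper, whose product binds BMPs in the vessel wall, had 4.48 ± 0.541 CPM in males and 3.09 ± 0.293 CPM in females (0.54, SE 0.12, edgeR adjusted p = 0.027). Each call held in 2 of the 8 refits without 1 library. The adjusted p went up to 0.12 for Chrd without male replicate 3 and to 0.081 for Bmper without female replicate 2.

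In the remaining 5 lists no gene was called by edgeR. At an unadjusted p below 0.05 stood 5 of 17 genes of ligand storage and activation, 1 of 14 genes listed as activin and BMP ligands, 3 of 7 activin and BMP receptors, 2 of 6 other Smads and 7 of 22 intracellular regulators, where 19.5% of all genes did so. The medians were -0.057, -0.061, -0.055, -0.042 and 0.031 in that order. The 14 genes listed as ligands include Bmp1, which encodes a protease. The genes with the smallest p were Lrrc32, which encodes the latent TGF-beta anchor GARP (-0.35, adjusted p = 0.069), and Gdf15, a stress-induced ligand (0.53, adjusted p = 0.2). In the other lists they were the type I receptor gene Acvr1 (-0.22, adjusted p = 0.07), Smad6, given above, and the coactivator gene Cited2 (0.18, adjusted p = 0.085).

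**Figure D5:**
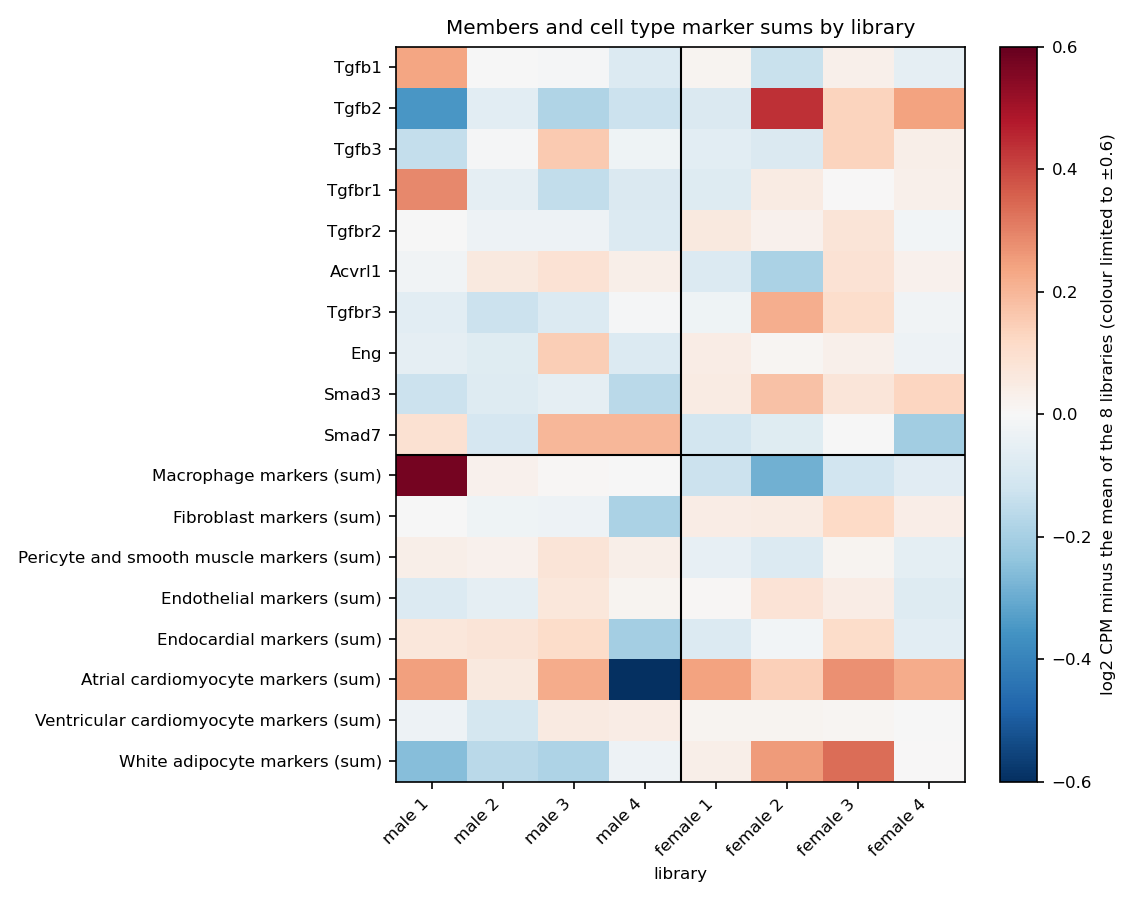
Log2 CPM minus the mean of the 8 libraries for each of the 10 genes (upper rows) and for 8 summed marker lists (lower rows), male libraries left of female ones. Male replicate 1 is high in Tgfb1, Tgfbr1 and macrophage markers, and male replicate 4 is low in atrial markers, beyond the colour limit.

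Among themselves, the 10 genes varied by different amounts within a sex. The coefficient of variation ran from 2.35% for Tgfbr2 to 14.4% for Tgfbr1 in males, and from 2.28% for Eng to 14.98% for Tgfb2 in females. Leaving out male replicate 4, the library poor in atrial markers, gave log2 fold changes of -0.39 for Tgfb2, -0.19 for Smad3 and 0.16 for Smad7.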

How the data were processed

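The authors deposited raw counts for 49315 genes and 8 tables of single samples with the same counts (100% equal), exon coordinates and summed exon lengths. The submitters' processing notes name Trimmomatic 0.36, STAR 2.5.2b, featureCounts of Subread 1.5.2 and GRCm38, without their order. How multiply mapped reads and strand were handled, and the annotation release, are not given in the sources used here. The authors also deposited a normalized signal for 16160 genes, which the values show to be raw counts over size factors of 0.863 to 1.196. On multiplying back, 100% of its values were whole within 0.01. Symbols were matched by Ensembl ID for 48970 genes.

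Low counts were removed by filterByExpr (minimum count 10, total 15), and the rest were scaled by TMM and tested with edgeR 4.0.16 in R 4.3.3 by the quasi-likelihood F-test of males over females, with p-values adjusted over 16180 genes by Benjamini-Hochberg. SEs were derived by dividing the size of the log2 fold change by the square root of F. Log2 CPM used a prior count of 2. Marker sums were compared by exact permutation over the 8 libraries. The procedure was tested on simulated data.

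The 10 genes were chosen, and 8 pathway and 17 cell type marker lists were written, with earlier results of these data known. The text names the 10 genes, the called genes of each pathway list (in lists without a call, the gene of lowest p) and the 3 genes most like the member with the smallest p. Adgre1, Fpgs, Gm29491, Fabp4, Des, Ccn2, Tgfbi, Postn and Id2 are named outside this rule, after their values were seen. So are Atoh8, Hey1, Tmem100, Smad9, Bmp1, Bmp10, Acvr1c, Adipoq, Scgb1a1, Gsn, Col1a1 and Col1a2. Alternatives were DESeq2 1.42.0 size factors and its Wald test, scaling by the upper quartile, all counted genes or those at 1 CPM in 4 libraries, limma-voom and limma 3.58.1 on log2 of the normalized signal plus 1. Others were a block for the replicate number, omission of each library in turn, changes of at least 1.5-fold, TPM in place of CPM per kb and mean log2 CPM in place of sums. Thinning to the smallest total was chosen after seeing the data.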

Additional observations from a re-analysis of the deposited data

Results flagged for a closer look

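A library was marked where its gap to the nearest of the 4 libraries of its sex exceeded the critical share of their whole range in Dixon's test. Of 68 groups of 4 tested this way, 6 held such a library, where chance gives about 1 in 20. Eng in males was marked for male replicate 3 (0.893 of the range, 233 CPM against 199 to 203 in the other males). Macrophage markers in males were marked for male replicate 1 (0.959), the library with the highest Tgfb1 and Tgfbr1. Male replicate 4 was marked for low fibroblast markers (0.856, 2869 CPM) and low endocardial markers (0.857, 105 CPM). Female replicate 3 was marked for high fibroblast markers (0.89, 3562 CPM) and for lung markers (0.839, 20.5 CPM), of which Scgb1a1 gave 19.9 CPM.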

How the results depend on the processing

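Smad3, Smad7, Tgfb1, Tgfb2, Tgfbr2, Tgfbr3, Acvrl1 and Eng kept their direction in all 17 alternative fits, as did the 7 pathway genes called. Tgfbr1, near 0, turned negative in limma-voom (-0.003), in limma on the normalized signal (-0.0004) and on thinning (-0.015), and ran from -0.096 to 0.059 with a library left out, where Tgfb3 ran from -0.065 to 0.037. The 613 genes called became 957 with DESeq2, 172 with limma on the normalized signal, 182 at 1.5-fold or more, and 315 to 490 with a library left out. The count of the 10 genes called, 1 as reported, was 2 with DESeq2 or no filter (Smad3 and Tgfb2), 0 with limma on the normalized signal (Smad3 at adjusted p = 0.074) or at 1.5-fold, and 0 to 2 with a library left out. The 7 pathway genes became 17 with DESeq2, 13 with no filter, 1 with limma on the normalized signal, 0 at 1.5-fold, and 3 to 8 with a library left out. The cause was not tested. With the replicate number as a block, 427 genes were called, Smad3 stood at adjusted p = 0.058 (log2 fold change -0.21) and Tgfb2 at 0.046 (-0.36). Over all genes tested, libraries of the same number did not deviate together (correlations -0.047 to 0.054). That cannot exclude a pairing that affects some genes, and the labels do not say whether the numbers pair libraries. With mean log2 CPM in place of sums, 5 marker comparisons changed sign, none past the threshold either way: endothelial (8.8e-05), pericyte and smooth muscle (-0.13), lymphocyte (-0.014), brown adipocyte (-0.90) and lymphatic (0.0029). TPM must give the same ratios between the 10 genes, since it only rescales the CPM per kb of each library, so this was no check. Depth limits Tgfb2 most, at 246 counts in its lowest library.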

Other observations

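Bmp10, which encodes a ligand of ALK1 made by atrial cardiomyocytes, had 14.1 CPM in male replicate 4, against 115 to 126 CPM in the other males and 121 to 136 CPM in females. It is one of the listed atrial markers that were low in that library. Acvrl1 (42.3 CPM) and Eng (199 CPM) in the same library were close to the values of male replicates 1 and 2.

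Acvr1c, the gene of the receptor ALK7 that adipocytes express, had 0.121, 0.254, 0.164 and 0.415 CPM in males and 0.423, 1.152, 1.38 and 0.358 CPM in females (log2 fold change -1.78, SE 0.49, edgeR adjusted p = 0.072). These values rest on 5, 10, 7 and 19 counts in males and 14, 42, 50 and 12 in females, and the sexes overlapped. Acvr1c is itself in the list of white adipocyte markers. The adipokine gene Adipoq was also lower in males (log2 fold change -2.41, edgeR adjusted p = 0.0015), and its part in the Acvr1c values was not tested.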
